A study of Mus musculus with 4 samples.

Results

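The aryl hydrocarbon receptor, its DNA-binding partner and its best known induced genes were followed in lung group 2 innate lymphoid cells (ILC2s) cultured with the Orai channel blocker compound 5D. The set held 7 of the 22554 genes in the deposited table: Cyp1a1, Cyp1b1, Tiparp, Ahrr, Ahr, Arnt and Nqo1. They were picked by gene name, and the names were chosen with earlier results of the 5D and vehicle comparison in these same libraries known. Their differences between the groups are therefore given as a description, with a standard error and no p-value. ILC2s were sorted from the lungs of BALB/c mice aged 6 weeks and kept overnight in IL-2, IL-7 and IL-33, which both groups received, together with either vehicle (2 libraries, labeled Control) or compound 5D (2 libraries). The dose of 5D in this culture is not stated in the sample labels, and no arm without IL-33 was analysed here. Compound 5D is a trichloroethyl furamide that carries a naphthylamine group and blocks store-operated calcium entry. The labels do not say whether the libraries of a group came from separate mice or cultures, so their spread may be technical and p-values measure only that spread.

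The aryl hydrocarbon receptor (AHR) is a transcription factor that waits in the cytosol, bound to HSP90 and other chaperones, until a small molecule such as a dioxin, a polycyclic aromatic hydrocarbon or a tryptophan derivative binds it. It then enters the nucleus, pairs with ARNT and binds a short DNA element, the xenobiotic response element, near its target genes. Cyp1a1 and Cyp1b1 encode cytochrome P450 enzymes that oxidize such ligands, while Tiparp and Ahrr encode inhibitors that feed back on the receptor. In barrier tissues AHR is known for its part in innate lymphoid cells, above all in ILC3s, and ILC2s express it as well.

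The libraries held 20096555 to 28697265 counts, and 17650 genes passed the filter on low counts and were tested, all 7 genes of the set among them. A level is a normalized CPM, which is a gene's share of the counts in its library, scaled to counts-per-million after upper-quartile adjustment, or a normalized CPM per kb of exon where one gene is set against another. The ILC2 genes Gata3, Il1rl1, Il5 and Il13 and 8 further ILC2 markers summed to 10760 and 10590 normalized CPM with vehicle and to 9968 and 10400 with 5D, so both 5D libraries were lower. The sum was weighted to abundant genes such as Il5 (4752 and 4710 with vehicle, 4377 and 4548 with 5D) and Il2ra (2221 and 2068 against 1771 and 1874). Of the 12 markers, 7 had a log2 fold change above 0 and 5 below, with a median of 0.0086. At an adjusted p-value under 0.05, edgeR called 0 of them, and DESeq2 and limma-voom called 1 each. At an unadjusted p-value under 0.05 by edgeR, 1 was higher and 3 were lower. Over all genes tested, 3.50% were higher and 3.84% lower at that threshold. Gata3 alone measured 1091 and 1099 with vehicle and 1095 and 1108 with 5D. Summed levels were 40.6 to 45.0 for T and B cell genes, 40.8 to 44.8 for myeloid genes, 27.5 to 29.9 for epithelial genes and 1.29 to 2.73 for fibroblast and smooth muscle genes. Each of these 4 ranges spanned both groups' libraries without a division between vehicle and 5D, except the last, where both 5D libraries (2.73 and 2.66) were above both vehicle libraries (1.29 and 2.35). Most of the T and B cell sum came from Cd3g (21.61 to 24.55) and Cd79b (13.4 to 19.1), whereas Cd3e was at most 4.13 and Cd3d at most 0.52. Xcr1 (35.2 to 38.8) made up most of the myeloid sum and Epcam (25.5 to 27.7) most of the epithelial sum. Lyz2 was at most 1.75 and Sftpc at most 0.14. Pdgfrb (1.03 to 2.62) made up most of the fibroblast and smooth muscle sum. Of 7 endothelial genes listed, only Pecam1 was among the genes of the deposited table. It stood at 23.7 and 21.3 with vehicle and 19.9 and 15.7 with 5D (adjusted p = 0.642 from edgeR), and endothelial cells cannot be judged from it alone. Whether other cells took part in the differences was not tested. Cd4, S100a9, Scgb1a1, Sftpa1, Krt8, Col1a2, Col3a1 and Pdgfra had 0 counts in all libraries. In bulk RNA, fewer cells of a type and less RNA per cell cannot be told apart.

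Cyp1a1 was the gene of the set that differed most between the groups. This gene (ENSMUSG00000032315.6, chromosome 9 of mm10 from 57687928 to 57703824, plus strand) was counted 353 and 163 times with vehicle and 1445 and 1606 times with 5D. In normalized CPM the vehicle libraries stood at 15.2 and 8.15 and the 5D libraries at 53.2 and 56.2. Both 5D libraries were high and close to each other, and the lower of them was 3.50 times the higher vehicle library. The group means were 11.7 ± 4.99 and 54.7 ± 2.07 normalized CPM (SD, n = 2 each), a log2 fold change of 2.21 (standard error 0.20), or 4.64-fold. Without vehicle replicate 1 the log2 fold change was 2.74, and without vehicle replicate 2 it was 1.85.

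Cyp1b1 differed in the same direction at a lower level. It lies on chromosome 17 from 79701537 to 79715061 on the minus strand and had 149 and 156 counts with vehicle against 420 and 460 with 5D. Its normalized CPM was 6.42 and 7.79 with vehicle and 15.5 and 16.1 with 5D, so that the groups were well apart. The means of 7.11 ± 0.976 and 15.8 ± 0.433 (SD, n = 2 each) gave a log2 fold change of 1.15 (standard error 0.17), or 2.23-fold. Per kb of exon, Cyp1a1 was 4.96 and 2.19 times Cyp1b1 in the vehicle libraries and 7.21 and 7.32 times Cyp1b1 in the 5D libraries. The excess of the first enzyme over the other was thus larger in both 5D libraries than in either vehicle library.

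The sequences just before the transcription start are shown for Cyp1a1, Cyp1b1 and Ahrr because these 3 genes had the largest log2 fold changes of the set. Each run is the 250 bases before the RefSeq start of the gene on GRCm38.p6, read in the direction of the gene, with the core of the xenobiotic response element in capitals (GCGTG, or CACGC where the core lies on the other strand). The windows are chr9:57697363-57697612 (plus strand), chr17:79715062-79715311 (minus strand) and chr13:74292332-74292581 (minus strand), and no exon of GENCODE M21 reaches into them. The Cyp1a1 start used here lies inside the GENCODE gene, which begins further upstream.
Cyp1a1: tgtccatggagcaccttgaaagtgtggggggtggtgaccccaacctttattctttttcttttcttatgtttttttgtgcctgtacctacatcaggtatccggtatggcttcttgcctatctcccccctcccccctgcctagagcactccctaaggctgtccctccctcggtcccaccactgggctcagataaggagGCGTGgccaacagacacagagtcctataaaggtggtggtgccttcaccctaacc
Cyp1b1: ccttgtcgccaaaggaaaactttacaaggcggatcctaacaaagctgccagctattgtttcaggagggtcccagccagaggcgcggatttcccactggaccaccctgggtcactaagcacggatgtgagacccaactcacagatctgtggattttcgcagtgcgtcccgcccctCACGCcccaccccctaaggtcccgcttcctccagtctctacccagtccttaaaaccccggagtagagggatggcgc
Ahrr: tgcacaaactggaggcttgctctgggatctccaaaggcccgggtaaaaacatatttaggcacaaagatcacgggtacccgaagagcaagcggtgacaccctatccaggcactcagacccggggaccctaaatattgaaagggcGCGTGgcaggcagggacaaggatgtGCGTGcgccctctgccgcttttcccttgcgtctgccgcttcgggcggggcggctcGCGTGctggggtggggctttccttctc

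The first base of the core was 54 bases before the start in Cyp1a1 and 76 bases before it, on the opposite strand, in Cyp1b1. Ahrr had 3 cores, at 107, 82 and 27 bases before the start. Promoters of 6 of the 7 genes, all but Ahr, were matched by symbol in the RefSeq table. The core was found on either strand in 5 of the 6, with 1 in Tiparp (170 bases before the start, opposite strand) and 1 in Arnt (29 bases), whereas Nqo1 had 0. Of all 32851 promoter windows of the same length, 28.2% held the core. The longer form TNGCGTG, which contains the core, was found only in Ahrr among the 6 and in 4.1% of all windows. The antioxidant response element, searched as TGANNNNGC on both strands, was found in Tiparp, Ahrr and Arnt and in 35.2% of all windows. Such matches describe the letters of these windows only, and elements further from the start were not searched.

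Of the feedback genes, Tiparp and Ahrr were both higher in both 5D libraries, by less than the cytochromes. Tiparp (TCDD-inducible poly-ADP-ribose polymerase), which modifies AHR and promotes its degradation, lies on chromosome 3 from 65528410 to 65555518. Its normalized CPM was 149.7 and 137.2 with vehicle and 208.3 and 197.0 with 5D. The means were 143.5 ± 8.86 and 202.6 ± 7.98 (SD, n = 2 each), a log2 fold change of 0.50 (standard error 0.06). Both 5D libraries were above both vehicle libraries, the lower 5D library by 1.32 times. An antisense gene, 4931440P22Rik, overlaps 223 bases of Tiparp exons and had 39 to 60 counts per library against at least 2746 for Tiparp. Whether reads were counted by strand is not given in the sources used here.

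Ahrr, the AHR repressor, which competes with AHR for ARNT and for the response element, lies on chromosome 13 from 74211118 to 74292331. It measured 28.54 and 29.03 normalized CPM with vehicle, nearly the same, and 45.2 and 40.9 with 5D, and the groups did not overlap. In log2 fold change this was 0.58 (standard error 0.10), and with 1 library left out it was 0.50 to 0.65. Relative to the receptor, and per kb of exon, Ahrr was 0.532 and 0.430 times Ahr with vehicle and 0.752 and 0.585 times Ahr with 5D. The repressor remained below the receptor per kb in each of the libraries. Without scaling by exon length, Ahrr was above Ahr in 5D replicate 1 (45.2 against 39.2 normalized CPM) and below it in the other libraries.

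**Figure D1:**
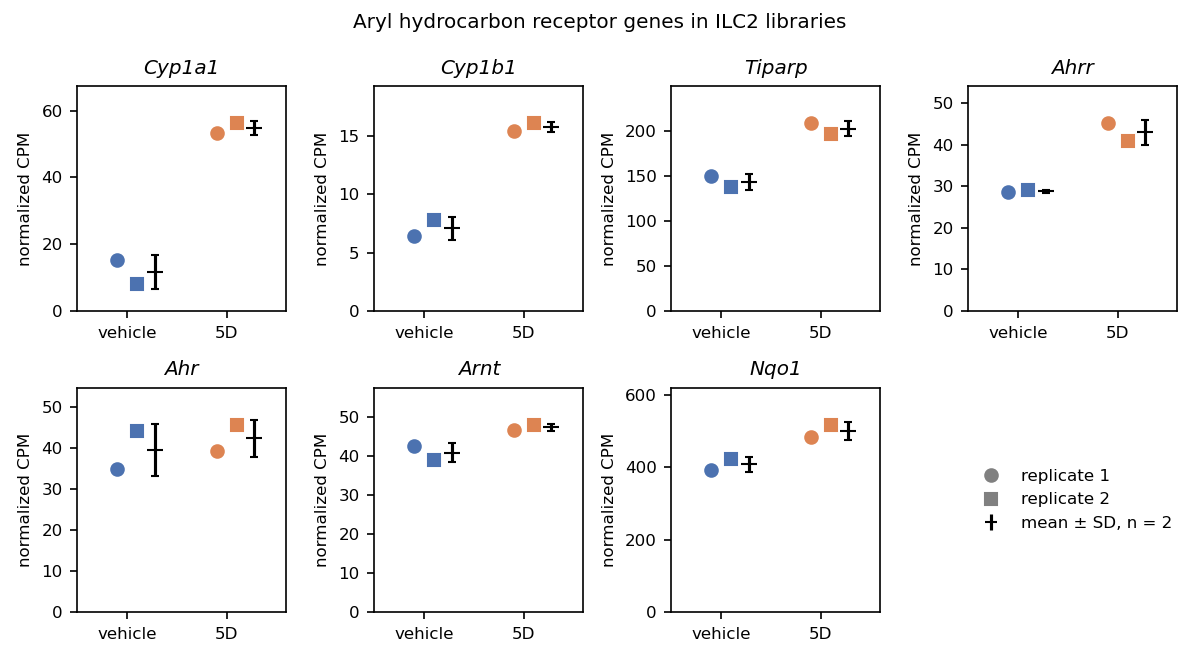
Normalized CPM (linear axes from 0) of the 7 genes in each library, with circles for replicate 1, squares for replicate 2 and black bars for the mean ± SD of 2 libraries. Cyp1a1 lay at 8.15 and 15.2 with vehicle and at 53.2 and 56.2 with 5D, whereas the vehicle and 5D libraries of Ahr overlapped.

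The receptor and its partner differed little between the groups. Ahr (chromosome 12 from 35497974 to 35535038) had 813 and 882 counts with vehicle and 1064 and 1305 with 5D. Scaled to library size it measured 35.0 and 44.1 normalized CPM with vehicle and 39.2 and 45.6 with 5D, so the groups overlapped. Ahr stood at a log2 fold change of 0.10 (standard error 0.12), and the sign turned to -0.058 without vehicle replicate 1 and to -0.012 without 5D replicate 2. An antisense gene, Gm48236, overlaps 127 bases of Ahr exons and had 6 to 15 counts per library.

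Arnt (chromosome 3 from 95434388 to 95497240), whose protein also serves as the partner of the hypoxia-inducible factors, measured 42.6 and 39.1 normalized CPM with vehicle and 46.8 and 48.0 with 5D. The groups did not overlap but lay close, with the lower 5D library 1.10 times the higher vehicle library. For Arnt the log2 fold change came to 0.21 (standard error 0.09). Per kb of exon, Ahr was 1.07 and 1.46 times Arnt with vehicle and 1.09 and 1.23 times Arnt with 5D, overlapping ranges. That Ahr was above Arnt in all libraries rests on dividing by the annotated exon bases, 6163 for Ahr and 8007 for Arnt. Without that division Arnt was above Ahr in vehicle replicate 1 and in both 5D libraries, and below it in vehicle replicate 2.

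Nqo1 (chromosome 8 from 107388225 to 107403206) encodes a quinone reductase and is a target of both AHR and NRF2, the regulator of antioxidant genes. It measured 393.1 and 422.7 normalized CPM with vehicle and 482.7 and 516.8 with 5D. Both 5D libraries were above both vehicle libraries, with means of 407.9 ± 20.9 and 499.7 ± 24.1 (SD, n = 2 each). This gave Nqo1 a 1.23-fold difference, or 0.29 in log2 fold change (standard error 0.05). On the linear scale its difference of 59.1 normalized CPM per kb of exon was the largest of the set, ahead of those of Cyp1a1 (15.4) and Tiparp (13.6).

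**Figure D2:**
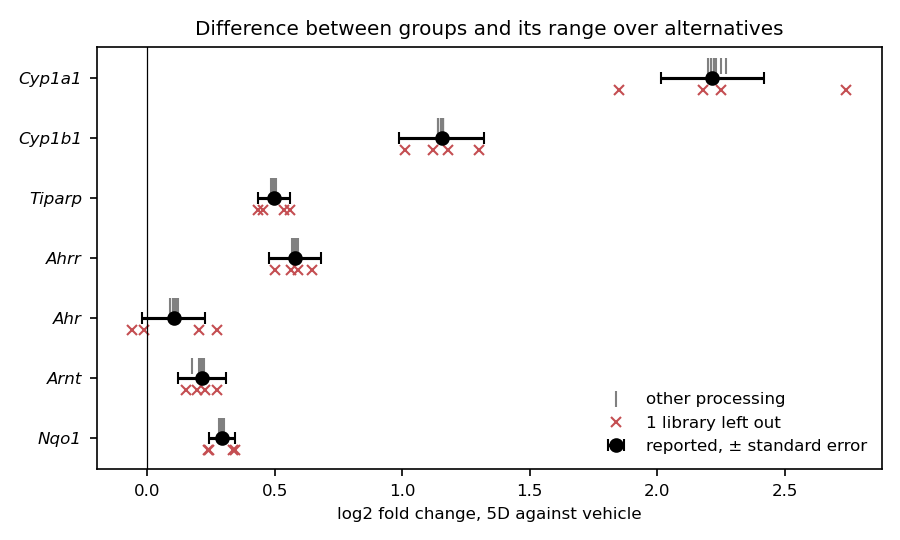
Log2 fold change of 5D against vehicle for the 7 genes, with black points and bars for the reported value ± its standard error, grey ticks for the other ways of processing and red crosses for fits with 1 library left out. Cyp1a1 ranged from 1.85 to 2.74 and Ahr from -0.058 to 0.28, and the other 5 genes were above 0 in every fit.

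Taken over the set, both 5D libraries were above both vehicle libraries for 6 of the 7 genes, a pattern found for 18.7% of all genes tested, and the median log2 fold change was 0.50, against -0.0016 over all genes tested. Because the set was chosen with this contrast in view, nothing is read from these figures. In log2 fold change the order was Cyp1a1, Cyp1b1, Ahrr, Tiparp, Nqo1, Arnt and Ahr. Ahrr and Tiparp, next to each other in this order, differed by less than their standard errors summed, as did Nqo1 and Arnt, and Arnt and Ahr.

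The order of the levels was compared per kb of exon, which for each gene counts every annotated exon base. With vehicle it ran from Nqo1 (262.7 ± 13.5 normalized CPM per kb) and Tiparp (32.9 ± 2.03) through Ahr (6.42 ± 1.04), Arnt (5.10 ± 0.305), Cyp1a1 (4.19 ± 1.79) and Ahrr (3.05 ± 0.0365) to Cyp1b1 (1.22 ± 0.167; SD, n = 2 each). The vehicle libraries of Cyp1a1, at 5.45 and 2.92 per kb, spanned the values of both Ahrr and Arnt, so these neighbors were not separated beyond their spread. With 5D, Cyp1a1 stood behind Nqo1 and Tiparp at 19.6 ± 0.742, above Ahr (6.88 ± 0.738), Arnt (5.92 ± 0.105), Ahrr (4.56 ± 0.319) and Cyp1b1 (2.70 ± 0.0741), while Tiparp was at 46.5 ± 1.83 and Nqo1 at 321.8 ± 15.5. No 2 neighbors overlapped between libraries in that group. Seen against all genes tested, 57.2% had a lower level per kb than Cyp1a1 with vehicle and 82.8% with 5D. For Nqo1 these shares were 98.9% and 99.2%, and for Cyp1b1 40.4% and 50.4%.

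**Figure D3:**
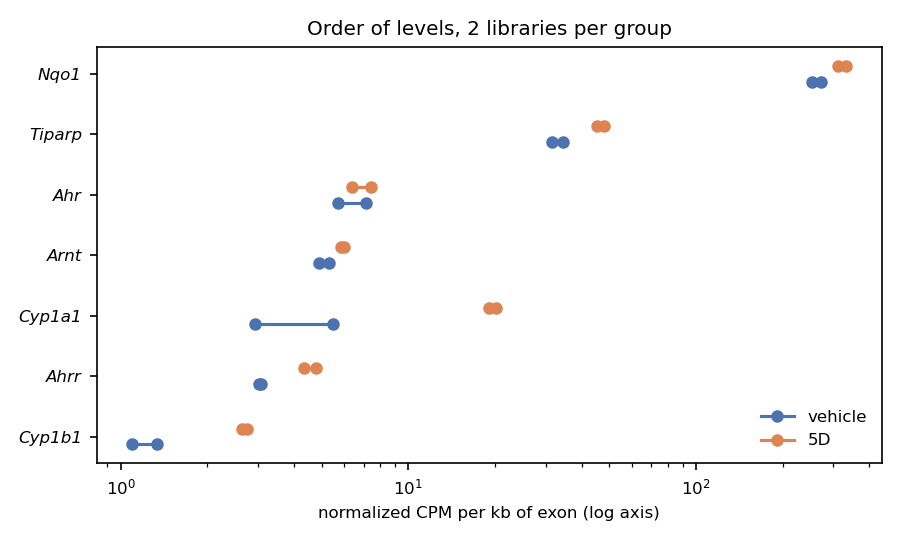
Normalized CPM per kb of exon (log axis) of the 7 genes, ordered by the vehicle mean, with blue points for the 2 vehicle libraries and orange points for the 2 5D libraries, joined within a group. Cyp1a1 spanned 2.92 to 5.45 with vehicle, across the levels of Ahrr and Arnt, and lay at 19.1 and 20.2 with 5D, above Ahr.

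The spread between libraries of the same group was not used to choose the genes. Cyp1a1 was 1.87 times as high in vehicle replicate 1 as in vehicle replicate 2. Among 2606 genes whose mean count over all 4 libraries was within 1.5-fold of that of Cyp1a1, 99.9% had a smaller gap between the vehicle libraries. The median gap was 1.08-fold. That mean was raised by the 5D counts of Cyp1a1 (1445 and 1606, against 353 and 163 with vehicle). The comparison genes were thus mostly counted more deeply in vehicle than Cyp1a1, and the share may be too high. Between the 5D libraries the gap of Cyp1a1 was 1.05-fold, and 38.5% of those genes had a smaller one. Cyp1b1 and Ahr were lower, not higher, in vehicle replicate 1 (0.823 and 0.794 times replicate 2), and Tiparp, Ahrr, Arnt and Nqo1 differed by at most 1.09-fold between the vehicle libraries. Of the genes of like mean count, 95.6% had a smaller vehicle gap than Ahr, 88.8% than Nqo1 and 83.6% than Tiparp. The shares were 69.8% for Cyp1b1, 60.3% for Arnt and 10.6% for Ahrr. For Cyp1b1 too the mean count was above both vehicle counts, so its vehicle share may be too high. Of the 7 genes, 3 were higher in vehicle replicate 1 and 4 were higher in vehicle replicate 2. Between the 5D libraries the widest gap of the set was that of Ahr, at 1.16-fold.

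Genes with the most similar profile were sought among 12329 genes with a mean of at least 1 normalized CPM and a count above 0 in every library, by the Euclidean distance between the 4 log2 levels taken relative to each gene's vehicle mean. Nearest to Cyp1b1 was Gpr15, a homing receptor, at a distance of 0.139, with 1.68 and 1.80 normalized CPM with vehicle and 3.76 and 4.09 with 5D. Adamtsl4, Gm3055, Rusc2 and Nat8f1 followed at distances of 0.236 to 0.309. Near Cyp1a1 were Tmem8b, Cage1, Vldlr and Eml6, at larger distances of 1.16 to 1.42. All of these 9 genes were low, with 8 to 117 counts per library. Of the genes of other innate lymphoid and NK cells, Tbx21, Eomes, Ncr1 and Il23r were at or below 7 counts in each library and Ccr6 at or below 9, Prf1 had 32 and 27 counts with vehicle and 3 and 43 with 5D, and the part of such cells in the Cyp1a1 difference was not tested.

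The wider pathway was examined through 4 lists of genes outside the set, tested within the fit over all genes. These lists, too, were chosen with earlier results of these data known, so their p-values are given as a description. At an adjusted p-value under 0.05, 0.0283% of all genes tested were higher and 0.0680% lower in 5D-treated ILC2s, and at an unadjusted p-value under 0.05, 3.50% were higher and 3.84% lower. A list of 18 chaperones, alternative partners and coregulators of AHR had 16 tested genes, of which 0 passed the adjusted test by edgeR, DESeq2 or limma-voom. At an unadjusted p-value 1 was higher and 1 lower, and the median log2 fold change was -0.0078. The one lower was Arnt2, a close relative of Arnt, with 16.6 and 14.5 normalized CPM with vehicle and 11.1 and 11.0 with 5D (log2 fold change -0.50 ± 0.15 SE, adjusted p = 0.520 from edgeR). The other was Relb, an NF-kB subunit that can pair with AHR, with 29.9 and 26.2 against 33.5 and 34.1 normalized CPM (adjusted p = 0.629 from edgeR). The HSP90 cochaperone gene Ptges3 and the coactivator gene Ncoa2 had log2 fold changes of -0.093 and 0.16. Ptges3 shares a near-identical stretch of 480 bases with Ptges3-ps, and Ncoa2 shares one of 150 bases with Syt11. The HSP90 gene Hsp90ab1, named after its values were seen, was measured at 1702 and 1669 normalized CPM with vehicle and 1728 and 1759 with 5D.

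A list of 30 further genes known as AHR-induced in one tissue or another had 21 tested genes, with a median log2 fold change of 0.0098. By edgeR, DESeq2 and limma-voom 0 passed the adjusted test, and at an unadjusted p-value 2 were higher and 0 lower. These were Exoc3, an exocyst subunit, at 164.7 and 161.5 against 183.6 and 183.9 normalized CPM (log2 fold change 0.17 ± 0.05 SE, adjusted p = 0.530 from edgeR), and Pmm1, a phosphomannomutase, at 19.6 and 16.6 against 21.9 and 23.7 normalized CPM (adjusted p = 0.621 from edgeR). Next by p-value were the chemokine receptor gene Ccr6, with 9 and 1 counts with vehicle and 2 and 0 with 5D, and the cytokine gene Il10, with a log2 fold change of -0.15 (standard error 0.11). Aldh3a1, an aldehyde dehydrogenase of the classical AHR gene battery named here after its values were seen, averaged 18.07 ± 0.101 (SD, n = 2) in the vehicle group against 20.12 ± 0.26 (SD, n = 2) normalized CPM (adjusted p = 0.856 by edgeR). Ugt1a6a, Gsta1, Gsta2 and Tgm2 of this list were too low to be tested.

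Among 20 genes that supply or consume tryptophan-derived ligands, 12 were tested and 1 passed the adjusted test. Slc7a8 (ENSMUSG00000022180.7, chromosome 14 from 54722209 to 54781946), which encodes the neutral amino acid transporter LAT2, was lower in both 5D libraries. It measured 1076 and 1083 normalized CPM with vehicle and 886.9 and 883.4 with 5D, the libraries of each group lying very close together. Its log2 fold change was -0.29 ± 0.04 SE, with an adjusted p of 0.0190 (edgeR's quasi-likelihood test, Benjamini-Hochberg), and this adjusted p-value was between 1.89e-10 and 0.0370 over all 14 alternatives. Slc3a2, the heavy chain that carries LAT2 to the membrane, had 755.7 and 788.7 against 696.6 and 680.0 normalized CPM and did not pass (log2 fold change -0.17 ± 0.04 SE, adjusted p = 0.361 from edgeR). DESeq2 called it, with an adjusted p-value of 0.0255, and its transcripts share near-identical stretches with 128 other genes. At an unadjusted p-value 2 of the 12 genes were higher and 2 lower, and the median log2 fold change was -0.064.

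The 2 with higher values were Il4i1, an amino acid oxidase that makes AHR ligands, with 9 and 6 counts with vehicle and 19 and 33 with 5D (adjusted p = 0.669 from edgeR), and Haao of the kynurenine pathway (log2 fold change 0.37 ± 0.17 SE, adjusted p = 0.677 from edgeR). Exons of Il4i1 overlap those of Nup62 over 97 bases on the same strand, and those of Tbc1d17 over 3423 bases and Atf5 over 82 bases on the other strand. Nup62 had 3562 to 5078 counts per library and Tbc1d17 had 636 to 861, so the low counts of Il4i1 are uncertain. Tph1, which encodes the enzyme that starts serotonin synthesis from tryptophan and was named after its values were seen, measured 224.3 and 196.0 normalized CPM with vehicle and 206.6 and 191.8 with 5D, overlapping between the groups. Tdo2 had 0 counts in all libraries and Ido2 at most 3 in a library.

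Because Nqo1 is shared between AHR and NRF2, 22 other targets and regulators of NRF2 were listed, and all were tested. By edgeR, DESeq2 and limma-voom 0 passed the adjusted test, with 3 higher and 0 lower at an unadjusted p-value and a median log2 fold change of 0.022. The 3 were Hmox1, which encodes heme oxygenase 1, at 105.2 and 106.4 against 120.5 and 129.1 normalized CPM (log2 fold change 0.24 ± 0.06 SE, adjusted p = 0.440 from edgeR), the ferritin gene Ftl1 (log2 fold change 0.077) and the thioredoxin reductase gene Txnrd1 (log2 fold change 0.11). Ftl1 shares near-identical stretches with 7 other genes. The cystine transporter gene Slc7a11 followed by p-value with a log2 fold change of -0.46 (standard error 0.24), and its transcripts share stretches with 11 other genes. The glutamate-cysteine ligase genes Gclc and Gclm, named after their values were seen, had log2 fold changes of 0.015 and -0.023.

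**Figure D4:**
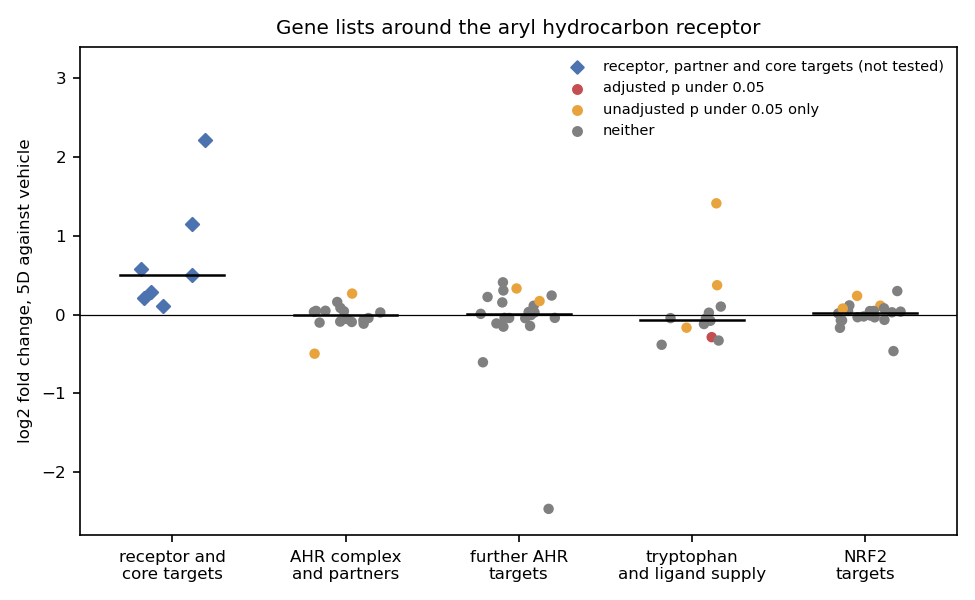
Log2 fold change of 5D against vehicle for the receptor, its partner and core targets (blue diamonds, not tested) and for the tested genes of the 4 lists (circles), with black lines for the medians, red for an adjusted p-value under 0.05 by edgeR and orange for an unadjusted p-value under 0.05 only. The medians of the 4 lists were between -0.064 and 0.022, and Slc7a8 is the red point.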

How the data were processed

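RNA was measured in 4 libraries of sorted mouse lung ILC2s, 2 with vehicle and 2 with compound 5D, grouped by the sample titles. The authors aligned reads with STAR (version 2.6.1 in the submitters' processing notes) to mm10 with GENCODE M21 and quantified them in Partek. Estimated counts of each gene, not normalized, are what the authors deposited, and 51.7% to 54.8% of them per library were whole (within 1e-06). They were rounded to whole numbers, whereas whole counts had been planned for.

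The packages edgeR 4.0.16, DESeq2 1.42.0 and limma 3.58.1 were run under R 4.3.3. Upper-quartile factors scaled the libraries, and a gene was kept where its normalized counts averaged at least 1 and summed to at least 10. Groups were compared by edgeR's quasi-likelihood test, two-sided, adjusted by Benjamini-Hochberg over 17650 genes. The study's own Gene Set Analysis was not used here. An exact permutation test of 2 against 2 libraries cannot go below p = 0.333 and was not run. A standard error was taken from the quasi-likelihood F, its square root dividing the size of the log2 fold change. The pair of libraries in either group differed beyond counting error (chi-square per degree of freedom 6.71 and 7.56 over 11184 genes) and were kept as separate samples.

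The genes of the set and the lists were chosen with earlier results of these data known. Genes named are the 7 of the set, the list genes past an adjusted p-value of 0.05, the 4 of each list with the smallest p-values, and the 5 nearest profiles of Cyp1a1 and of Cyp1b1, and any others were named after their values were seen. One item that this rule names is not reported here. Listed genes beyond those tested were too low or were absent under the listed name from the deposited table, as Cyp1a2 was. Coordinates come from GENCODE M21 and equal the positions in the deposited table for the genes of the set. Shared stretches of at least 150 bases at 95% identity were searched with BLAST 2.17.0. Promoters are from RefSeq on GRCm38.p6. On simulated counts for 17650 genes, 54 of 67 genes changed 1.5-fold (80.6%) and 64 of 67 changed 2-fold (95.5%) were called. At either fold, 8 unchanged genes were called as well. Alternatives were TMM, DESeq2's size factors, no filter, filterByExpr, DESeq2's Wald test, limma-voom, the replicate number as a block, thinning to the smallest total and leaving out each library. The upper quartile after the filter and unrounded counts were added after seeing the data.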

Additional observations from a re-analysis of the deposited data

How the results depend on the processing

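The direction of Cyp1a1, Cyp1b1, Tiparp, Ahrr, Arnt and Nqo1 was the same under all 14 alternatives. With 1 library left out, where the lone library of a group is assumed to vary like the other pair, the log2 fold change of Cyp1a1 was between 1.85 and 2.74, that of Ahrr between 0.503 and 0.648 and that of Ahr between -0.0583 and 0.275, negative without vehicle replicate 1 and without 5D replicate 2 (-0.012). The calls over all genes, 5 higher and 12 lower, were 11 and 35 with no filter, 17 and 43 with DESeq2's Wald test, and 9 and 23 with limma-voom. They were 9 and 32 with the replicate number as a block, where the replicate numbers share only a label: the correlation across genes of replicate 1 minus 2 between the groups was 0.0244. The block changed no call among the lists. Leaving out vehicle replicate 1 gave 73 and 107 calls, vehicle replicate 2 gave 32 and 47, 5D replicate 1 gave 6 and 14, and 5D replicate 2 gave 3 and 12, and the cause was not tested. In the tryptophan list 1 gene was called, and 2 with DESeq2's Wald test and without vehicle replicate 1 (range 1 to 2 over the libraries left out), the additional gene being Slc3a2. With 2 libraries per group, the spread of a single gene such as Cyp1a1 rests on 1 difference per group.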

Other observations

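Of the 4 lists around the receptor, the tryptophan list held both subunits of the LAT2 transporter, Slc7a8 and Slc3a2. Their log2 fold changes were -0.29 and -0.17 (adjusted p = 0.019 and 0.361 from edgeR), so only Slc7a8 passed. Slc7a5 of the list of further targets, which encodes the related LAT1 light chain, had 515.4 and 533.6 normalized CPM with vehicle and 522.3 and 533.8 with 5D (log2 fold change 0.0098, standard error 0.04, adjusted p = 0.987 from edgeR), with overlapping libraries. The difference between Slc7a8 and Slc7a5 was not tested. These 3 genes were set side by side after their values were seen.

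The cytokine gene Il22, known as AHR-dependent in ILC3s, was detected in all libraries, at 20.5 and 31.5 normalized CPM with vehicle and 25.0 and 25.4 with 5D, and its groups overlapped (log2 fold change -0.041, standard error 0.17).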
